A study of Homo sapiens with 40 samples.

Results

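The RNA of JAK kinases and STAT factors was followed in a pair of HER2-positive breast cancer cell lines, BT474, which responds to the anti-HER2 antibody trastuzumab, and BT474R, its resistant derivative. The set held 9 of the 44584 gene names in the count table and was taken by name alone. It consisted of the kinases JAK1, JAK2 and TYK2 and the transcription factors STAT2, STAT3, STAT4, STAT5A, STAT5B and STAT6. Both lines were deprived of serum and sampled at baseline (T0) or after 1 h, 12 h or 24 h with epidermal growth factor (EGF), with heregulin (HRG), or with water as vehicle. These 20 groups had 2 libraries each, 40 libraries in all, and every group, the vehicle groups included, had passed through the same starvation. EGF binds the EGF receptor and HRG binds HER3 and HER4, and both draw HER2 into receptor pairs. BT474R is 1 clone that was selected from BT474 under trastuzumab, so each difference between the lines compares 1 parental line with 1 clone. Below, EGF-BT474R and the like name a ligand in a line.

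JAK kinases sit on the inner tails of cytokine receptors that have no kinase activity of their own. When a cytokine brings the receptor chains together, the kinases phosphorylate the chains and the STAT factors that dock on them, and the STATs pair, enter the nucleus and switch on genes. JAK1 and TYK2 serve receptors of interferons and of the interleukin-6 family, and JAK2 takes part at some of these too. JAK2 also serves the prolactin and growth hormone receptors, and in mammary epithelium prolactin acts through JAK2 and STAT5. STAT2 works with IRF9 in the response to interferon, STAT3 answers the interleukin-6 family and STAT6 answers interleukin-4 and interleukin-13. Activation of these proteins is by phosphorylation, which RNA counts do not measure.

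Libraries held 19200632 to 29098915 counts in BT474 and 16794594 to 33387936 in BT474R. A count of 3, taken as the detection limit, corresponds to 0.0899 to 0.179 CPM (a count rescaled to a common library total) across the libraries. The cells carried luminal breast markers in every library, with KRT8 at 995 to 2621 CPM and ERBB2, which encodes HER2, at 6119 to 9955 CPM. GATA3 and PGR, also luminal markers, were present in both lines but at T0 fell from 497 to 39.5 CPM and from 922 to 22.5 CPM between BT474 and BT474R, and their part in the differences between the lines was not tested. Markers of other cell types were uneven. Of the blood cell markers, PTPRC had at most 2 counts in a library and CD3E at most 1, but LYZ had up to 33 and CD68 stood at 1.03 to 4.76 CPM. Of the fibroblast markers, COL1A1 stood at 74.7 to 282 CPM in every library, while COL1A2 had at most 4 counts and PDGFRB at most 1. The endothelial marker PECAM1 had at most 5 counts, and the basal markers KRT5, KRT14 and ACTA2 at most 65, 7 and 5. Their part in the results was not tested. Over the genes of a pair of libraries, the median chi-square between replicates ran from 0.595 to 2.56, against 0.455 for counting noise alone, and was largest for HRG-BT474R at 24 h. The study states that treatments were done in duplicate, but nothing in the labels says that the libraries of a group came from separate cultures. The p-values here thus measure only the spread between these libraries, which may be technical. Unless another test is named, an adjusted p is that of edgeR's quasi-likelihood F test over all genes tested, a gene passed the test below 0.05, and errors of log2 fold changes are standard errors.

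In GRCh38, JAK1 lies on chromosome 1 (64833223 to 65067754, minus strand), JAK2 on chromosome 9 (4984390 to 5129948, plus strand) and TYK2 on chromosome 19 (10350533 to 10380608, minus strand). STAT2 (56341597 to 56360203, minus strand) and STAT6 (57095408 to 57132139, minus strand) are both on chromosome 12, and STAT4 is on chromosome 2 (191029576 to 191151596, minus strand). STAT5B (42199176 to 42288633, minus strand), STAT5A (42287547 to 42311943, plus strand) and STAT3 (42313324 to 42388540, minus strand) follow each other on chromosome 17. Values are counts of reads over the exons of a gene. The main transcript of STAT6 shares 69 bases, 1.74% of its length, with NAB2 on the other strand. That of STAT5A shares 101 bases, 2.68%, with exons of STAT5B on the other strand. That of STAT4 shares 109 bases, 4.26%, with STAT4-AS1 and 152 bases, 5.94%, with another antisense transcript. Reads in these stretches cannot be assigned without strand, and the strand setting of the counting is not given in the sources used here.

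STAT5A and STAT5B carry the same letters over 429 bases of their coding sequence, and 371 windows of 100 bases, 16.25% of those of STAT5A and 16.4% of those of STAT5B, are found in both. A read wholly within these stretches cannot be assigned by its own letters, though its mate in the read pair may lie outside them. How the authors' counting treated such reads is not given in the sources used here, so the split of counts between these genes is uncertain. The start of the shared run is shown for that reason, with the run in capitals and the bases before it in lower case. The genes differ only among the last letters of that lower-case part.
STAT5A: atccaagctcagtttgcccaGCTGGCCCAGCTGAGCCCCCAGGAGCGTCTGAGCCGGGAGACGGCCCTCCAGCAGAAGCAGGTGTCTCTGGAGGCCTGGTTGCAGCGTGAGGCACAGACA
STAT5B: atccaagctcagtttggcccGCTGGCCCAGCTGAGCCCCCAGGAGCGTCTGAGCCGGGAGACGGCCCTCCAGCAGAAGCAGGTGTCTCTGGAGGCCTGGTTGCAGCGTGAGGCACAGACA

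Among the 6 members with group means of at least 4 CPM, STAT2 and STAT6 fell most with the ligands in BT474, and the 250 bases before their start sites are shown in lower case, from the RefSeq promoter table (GRCh38). That of STAT2 is chr12:56360108-56360357 and that of STAT6 is chr12:57110290-57110539, both on the minus strand. The STAT6 stretch lies wholly inside the gene span given above. The STAT2 stretch lies partly inside its own, which ends at 56360203. Each thus precedes an internal start site and not the outermost one.
STAT2: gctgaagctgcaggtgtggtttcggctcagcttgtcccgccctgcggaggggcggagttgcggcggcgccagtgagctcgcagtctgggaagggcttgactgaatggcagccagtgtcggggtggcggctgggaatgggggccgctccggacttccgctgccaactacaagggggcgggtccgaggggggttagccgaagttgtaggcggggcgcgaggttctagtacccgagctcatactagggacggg
STAT6: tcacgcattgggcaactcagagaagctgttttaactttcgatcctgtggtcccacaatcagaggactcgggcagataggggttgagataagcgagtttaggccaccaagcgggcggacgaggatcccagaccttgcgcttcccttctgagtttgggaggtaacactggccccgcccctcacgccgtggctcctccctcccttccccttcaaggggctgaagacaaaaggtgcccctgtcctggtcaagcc
The table lists 17 promoters for the 9 members, each with 250 bases before and 50 after a start site. None of them held the GAS motif of STAT pairs (TTCNNNGAA, its own reverse complement) or the ISRE motif of STAT2 with IRF9 (on either strand), which 7.66% and 3.57% of all 35116 promoters held. This says only that these letters are not in these windows.

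STAT3, TYK2, JAK1 and STAT2 were the abundant members, STAT5B and STAT6 were intermediate, and STAT5A, STAT4 and JAK2 were low. Levels between genes were compared as CPM per kilobase of the main transcript (GENCODE v44). At T0 in BT474 the order was STAT3 (32.1), TYK2 (28.7), JAK1 (24.3), STAT2 (19.4), STAT5B (5.17), STAT6 (2.59), JAK2 (0.320), STAT5A (0.272) and STAT4 (0.157). The libraries of JAK2 overlapped those of STAT5A, and all other neighbours in this order were apart. In BT474R it was STAT3 (32.0), JAK1 (29.4), TYK2 (24.7), STAT2 (12.4), STAT5B (4.71), STAT6 (3.00), STAT5A (0.289), STAT4 (0.0738) and JAK2 (0.00424), with no overlap between neighbours. JAK1 and TYK2 thus changed places between the lines and JAK2 dropped from the seventh place to the last.

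**Figure D1:**
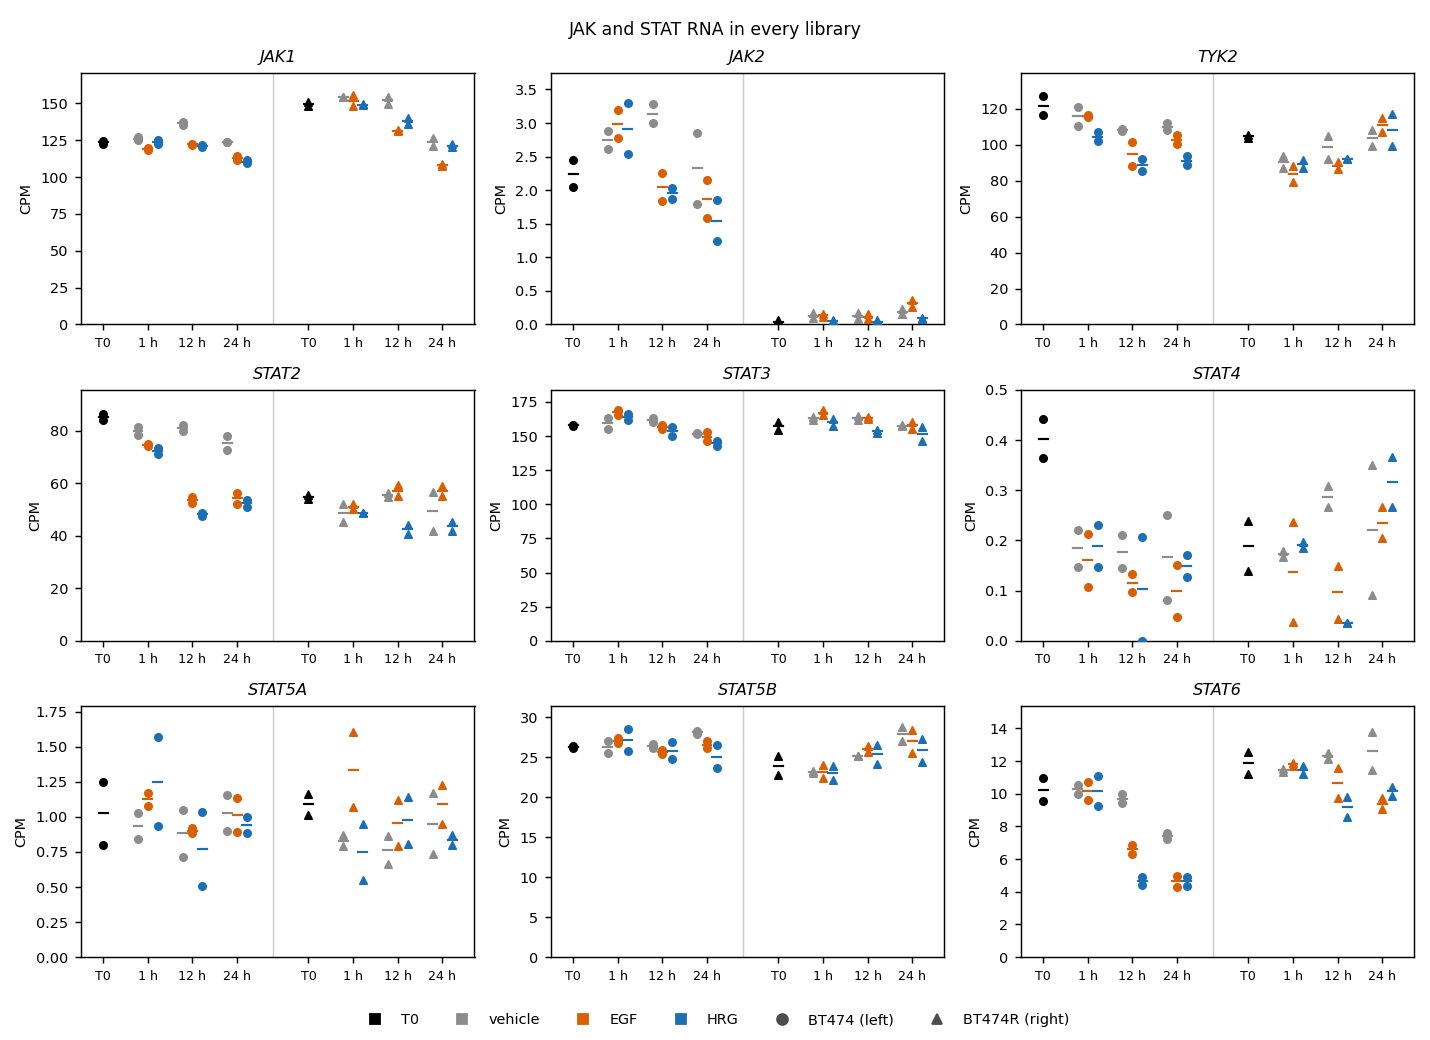
CPM of each member (vertical axes, each from 0) in every library, by line and time on the horizontal axis, with 1 point a library and colours for T0, vehicle, EGF and HRG. JAK2 sits between 1.24 and 3.30 CPM in BT474 and between 0 and 0.369 CPM in BT474R, and STAT2 in BT474 falls from 72.8 to 82.3 CPM under vehicle at 12 h and 24 h to between 47.5 and 56.5 CPM with a ligand.

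JAK2 was nearly absent from BT474R. It had 36 to 91 counts in each of the 20 BT474 libraries and 0 to 9 counts in each of the 20 BT474R libraries, 12 of which were at or under 3 counts and 2 at 0. At T0 the BT474 libraries had 51 and 47 counts (2.05 and 2.45 CPM) and the BT474R libraries 1 and 0 counts (0.0595 and 0 CPM). The levels of the lines did not overlap at any time or treatment. Over all libraries of a line, 1127 counts in BT474 stood against 62 in BT474R, a ratio of 19.3 in CPM (exact 95% interval 14.9 to 25.3, counting error only). The same ratio was 84.9 at T0 (14.9 to 3389), 22.5 under vehicle at 1 h (10.6 to 57.2), 23.7 at 12 h (11.3 to 60.0) and 12.0 at 24 h. The difference passed the test at T0 (adjusted p = 8.8e-11) and under vehicle at 1 h (6.3e-12), 12 h (1.3e-12) and 24 h (1.3e-09). Fitted log2 fold changes, -6.08 ± 0.61 at T0 and -3.45 ± 0.39 at 24 h under vehicle, rest on so few counts in BT474R that their size depends on the prior count of the fit. The same holds for their errors, and at T0 the exact interval of the ratio given above is wider than the fitted error implies. The highest JAK2 counts of BT474R were those with EGF at 24 h, 9 and 7, but none of the ligand effects on JAK2 in BT474R passed the test. In bulk RNA, fewer cells that express a gene and less RNA in each cell cannot be told apart.

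The genes beside JAK2 were looked at after these values were seen, among the 5 nearest tested genes on each side, and those with at least 20 counts over both lines are given. RCL1, the nearest of them before JAK2, which encodes a factor of ribosomal RNA processing, fell from 267 counts in BT474 to 92 in BT474R at T0, a log2 fold change of -1.24 ± 0.20 (adjusted p = 2.1e-06). After JAK2, RLN2, which encodes the hormone relaxin, had 21 counts in BT474 and 1 in BT474R (adjusted p = 0.0024), and PLGRKT, which encodes a plasminogen receptor, fell from 473 to 136 counts, a ratio of 0.332 in CPM (exact 95% interval 0.272 to 0.402, adjusted p of the difference = 6.7e-10). None of the genes farther out on either side passed the test as lower in BT474R. PLPP6, CDC37L1 and AK3, farther before JAK2, had log2 fold changes of 0.05 ± 0.18, 0.20 ± 0.16 and -0.03 ± 0.10 and did not pass the test. RIC1 and ERMP1, farther after it, were higher in BT474R by 0.35 ± 0.09 and 0.31 ± 0.06. At T0, 21.7% of all genes tested were lower and 25.1% higher in BT474R, and whether the neighbours and JAK2 share a cause was not tested.

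**Figure D2:**
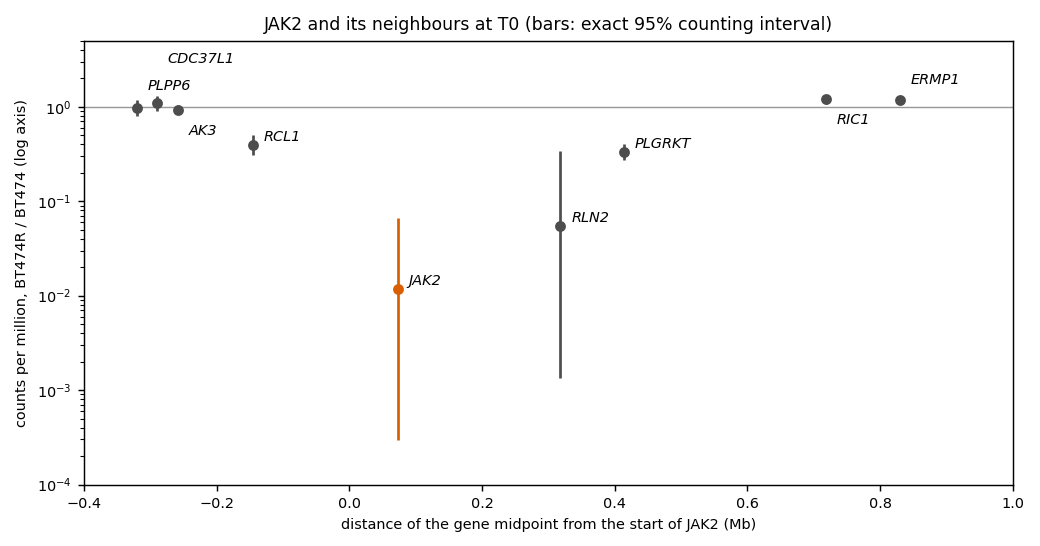
Ratio of CPM from summed counts, BT474R over BT474, at T0 (log axis) against the distance of each gene's midpoint from the start of JAK2, for JAK2 and those of its nearest genes with at least 20 counts, with exact 95% counting intervals. RCL1 (0.398), JAK2, RLN2 (0.0549) and PLGRKT (0.332) lie under a ratio of 1, and the genes farther out lie between 0.927 and 1.21.

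JAK1 was higher in BT474R at T0 and TYK2 did not pass the test. At T0 JAK1 stood at 125 and 123 CPM in BT474 and at 148 and 151 CPM in BT474R, without overlap. This was a log2 fold change of 0.36 ± 0.04 (adjusted p = 3.7e-09). Of the 9 members, 2 were higher in BT474R at T0 (JAK1 and STAT6) and 2 were lower (JAK2 and STAT2), beside 25.1% and 21.7% of all genes. Under vehicle the difference in JAK1 was 0.42 ± 0.04 at 1 h, 0.25 ± 0.04 at 12 h and 0.11 ± 0.04 at 24 h. At 24 h the CPM themselves overlapped, 127 and 121 in BT474R against 124 and 124 in BT474, and that call rested on the scaling between libraries, was lost in 6 of 7 alternatives (0.05 to 0.11) and was lost without any 1 of its 4 libraries (0.07 to 0.11). TYK2 was at 104 and 106 CPM in BT474R and at 116 and 127 CPM in BT474 at T0, a log2 fold change of -0.14 ± 0.07 (adjusted p = 0.12). This depended on the setting, as TYK2 passed as lower in BT474R in 5 alternatives (adjusted p = 0.00021 with only these 4 libraries and 0.021 to 0.042 in the other 4, of other filters, scaling or DESeq2) and without replicate 1 of BT474 (0.040). It was lower in BT474R under vehicle at 1 h, by -0.23 ± 0.07 (adjusted p = 0.0052), and this call was lost without replicate 1 of the BT474 vehicle libraries (-0.19, adjusted p = 0.064).

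Among the STATs, STAT2 was lower in BT474R at baseline and STAT6 was higher. STAT2 was at 84.1 and 86.4 CPM in BT474 and at 54.0 and 55.5 CPM in BT474R at T0. Both BT474R libraries were far under both BT474 libraries, and the log2 fold change was -0.56 ± 0.07 (adjusted p = 2.7e-08). Under vehicle it was -0.60 ± 0.07 at 1 h, -0.45 ± 0.07 at 12 h and -0.50 ± 0.07 at 24 h. It passed the test at each of these times, also without any 1 library. STAT6 was at 9.55 and 10.9 CPM in BT474 and at 11.2 and 12.5 CPM in BT474R at T0, 0.30 ± 0.11 higher on the log2 scale (adjusted p = 0.025). That call was lost with DESeq2 size factors (adjusted p = 0.052), in DESeq2 (0.12), with no filter on low counts (0.089), and without replicate 1 of BT474 or replicate 2 of BT474R (log2 fold changes of 0.19 and 0.18). Under vehicle at 1 h the difference was 0.28 ± 0.11 (adjusted p = 0.031) and was lost in the same 3 alternatives (adjusted p = 0.069, 0.15 and 0.078) and without any 1 of its 4 libraries (log2 fold changes of 0.22 to 0.30). Later the estimates were larger, 0.44 ± 0.11 at 12 h and 0.88 ± 0.11 at 24 h (adjusted p = 3.2e-08), when BT474 had 7.62 and 7.24 CPM and BT474R 13.8 and 11.4 CPM.

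STAT3, the most abundant member, differed little between the lines. It was at 158 and 157 CPM in BT474 and at 154 and 160 CPM in BT474R at T0, and these libraries overlapped. After scaling between libraries it was higher in BT474R under vehicle by 0.16 ± 0.04 at 1 h, 0.11 ± 0.04 at 12 h and 0.17 ± 0.04 at 24 h, all past the threshold, although the CPM at 12 h (165 and 162 in BT474R, 163 and 160 in BT474) overlapped. At 1 h the call was lost without replicate 2 of BT474 or replicate 2 of BT474R (both 0.10), at 12 h without any 1 of the 4 libraries (0.09 to 0.13) and in 4 alternatives (adjusted p = 0.054 to 0.11), and at 24 h without the filter on low counts (0.12) or in a fit of these 4 libraries alone (0.11). STAT5B, STAT5A and STAT4 did not pass the test between the lines at T0 or under vehicle. For STAT5B the difference at T0 was -0.05 ± 0.08, with a 95% interval of -0.21 to 0.11. STAT4 had 0 to 11 counts in a library, 83 in all of BT474 and 94 in all of BT474R, a ratio of 0.937 (exact 95% interval 0.689 to 1.27). Under vehicle, 6 members passed the test between the lines at 1 h, 5 at 12 h and 5 at 24 h, where 50.2%, 49.0% and 49.3% of all genes did.

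**Figure D3:**
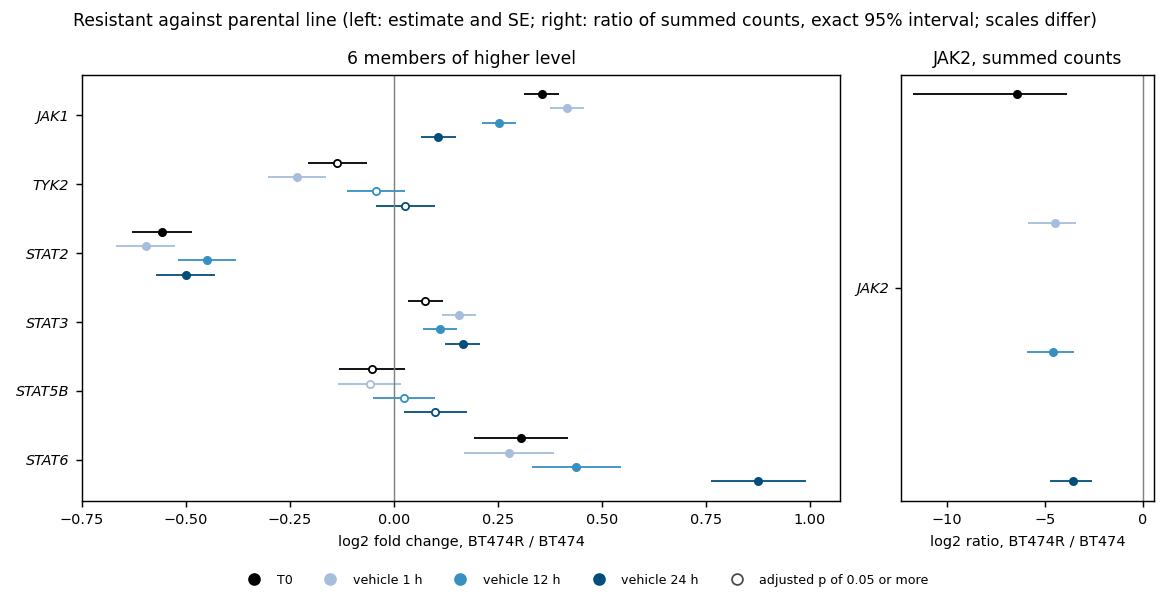
Difference between BT474R and BT474 at T0 and under vehicle at the 3 later times, as log2 fold change with its standard error (left), and for JAK2 as the log2 ratio of summed counts with exact 95% intervals (right, another scale). JAK1 and STAT6 lie right of 0 and STAT2 left of 0 at all 4 times, and the JAK1 difference is 0.36 at T0 and 0.11 at 24 h.

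No member passed the test with a ligand at 1 h, when few genes of any kind did. In the 4 comparisons at that time 0 of 9 members passed edgeR's test, where 2.19% of all genes did with EGF-BT474, 2.77% with HRG-BT474, 0.457% with EGF-BT474R and 0.169% with HRG-BT474R. At shares this low, 0 of 9 does not set the members apart from other genes. At an unadjusted p under 0.05 the counts were 1, 0, 1 and 0, and DESeq2 called 0 in each. STAT3 with EGF-BT474 had the smallest p of these, at 169 and 166 CPM with EGF and 163 and 155 CPM with vehicle (log2 fold change 0.12 ± 0.04, adjusted p = 0.18). The next was STAT5A with EGF-BT474R, with 43 and 27 counts against 19 and 29.

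In BT474, STAT2 and STAT6 fell with both ligands at 12 h and 24 h. At 12 h STAT2 was at 79.9 and 82.3 CPM with vehicle, at 52.6 and 54.8 CPM with EGF and at 48.8 and 47.5 CPM with HRG. All 4 ligand libraries were under both vehicle libraries, and the log2 fold changes were -0.55 ± 0.05 with EGF (adjusted p = 2.5e-10) and -0.69 ± 0.05 with HRG (adjusted p = 1.6e-13). At 24 h vehicle had 72.8 and 78.2 CPM, EGF 52.3 and 56.5 CPM and HRG 51.1 and 53.8 CPM. STAT2 was then lower by -0.42 ± 0.05 with EGF and by -0.49 ± 0.05 with HRG. The 4 calls were kept in every alternative and without any 1 library.

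STAT6 at 12 h in BT474 was at 9.96 and 9.41 CPM with vehicle, at 6.32 and 6.87 CPM with EGF and at 4.88 and 4.42 CPM with HRG. The groups did not overlap. With HRG the level was 0.497 of that with vehicle (log2 fold change -1.01 ± 0.12, adjusted p = 3.9e-08), the largest fall of any of the 6 members with group means of at least 4 CPM. With EGF it was -0.51 ± 0.12 (adjusted p = 0.0022), a call that was lost without replicate 1 of EGF (-0.44, adjusted p = 0.062). At 24 h vehicle itself was lower, at 7.62 and 7.24 CPM, against 4.97 and 4.31 CPM with EGF and 4.91 and 4.35 CPM with HRG. The log2 fold changes were -0.61 ± 0.14 and -0.63 ± 0.13, and both held without any 1 library.

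Among the kinases in BT474, JAK1 and TYK2 fell with HRG at 12 h and 24 h and JAK2 at 12 h, and none passed the test with EGF. TYK2 at 12 h was at 107 and 109 CPM with vehicle and at 92.3 and 85.1 CPM with HRG, a log2 fold change of -0.23 ± 0.05 (adjusted p = 0.0012) that was lost without replicate 2 of HRG (-0.16, adjusted p = 0.095). At 24 h the change of TYK2 was -0.23 ± 0.06 (108 and 112 CPM with vehicle, 93.5 and 88.8 CPM with HRG) and held without any 1 library. JAK1 was lower with HRG by -0.12 ± 0.04 at 12 h, from 135 and 138 CPM to 120 and 122 CPM, and by -0.12 ± 0.04 at 24 h, from 124 and 124 CPM to 109 and 112 CPM. JAK2 at 12 h went from 91 and 71 counts to 48 and 54 counts, -0.64 ± 0.21 (adjusted p = 0.023). At 24 h JAK2 had 57 and 44 counts with vehicle and 36 and 44 with HRG, a change of -0.54 that did not pass. The calls of JAK1 and JAK2 were each lost without any 1 of their 4 libraries, and at 12 h also in DESeq2 (adjusted p = 0.058 and 0.10). JAK1 lost both calls in 1 fit of both lines (0.13 at 12 h and 0.076 at 24 h) and with no filter on low counts (0.086 and 0.081), and the one at 24 h with only the libraries compared (0.10). With EGF at 12 h the same kinases had -0.11 ± 0.04 (JAK1), -0.57 ± 0.22 (JAK2) and -0.14 ± 0.06 (TYK2) and did not pass (adjusted p = 0.062, 0.076 and 0.079), and in the difference between the ligands at 12 h none of the kinases passed the test. With only the libraries compared, all 3 passed with EGF at 12 h (adjusted p = 0.047, 0.048 and 0.042), JAK1 also passed with filterByExpr (0.035), and TYK2 with the replicate block within each line and time point (0.029) or without replicate 1 of EGF (0.015). In all, 5 of 9 members fell with HRG at 12 h and 4 at 24 h, beside 12.5% and 11.6% of all genes, and 2 fell with EGF at 12 h and 2 at 24 h, beside 6.99% and 6.65%. No member rose in BT474, where 9.04% and 9.71% of all genes rose with EGF and 13.3% and 12.5% with HRG at these times. The median member changed by -0.23 with HRG and -0.14 with EGF at 12 h, against -0.02 and -0.03 for all genes tested.

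**Figure D4:**
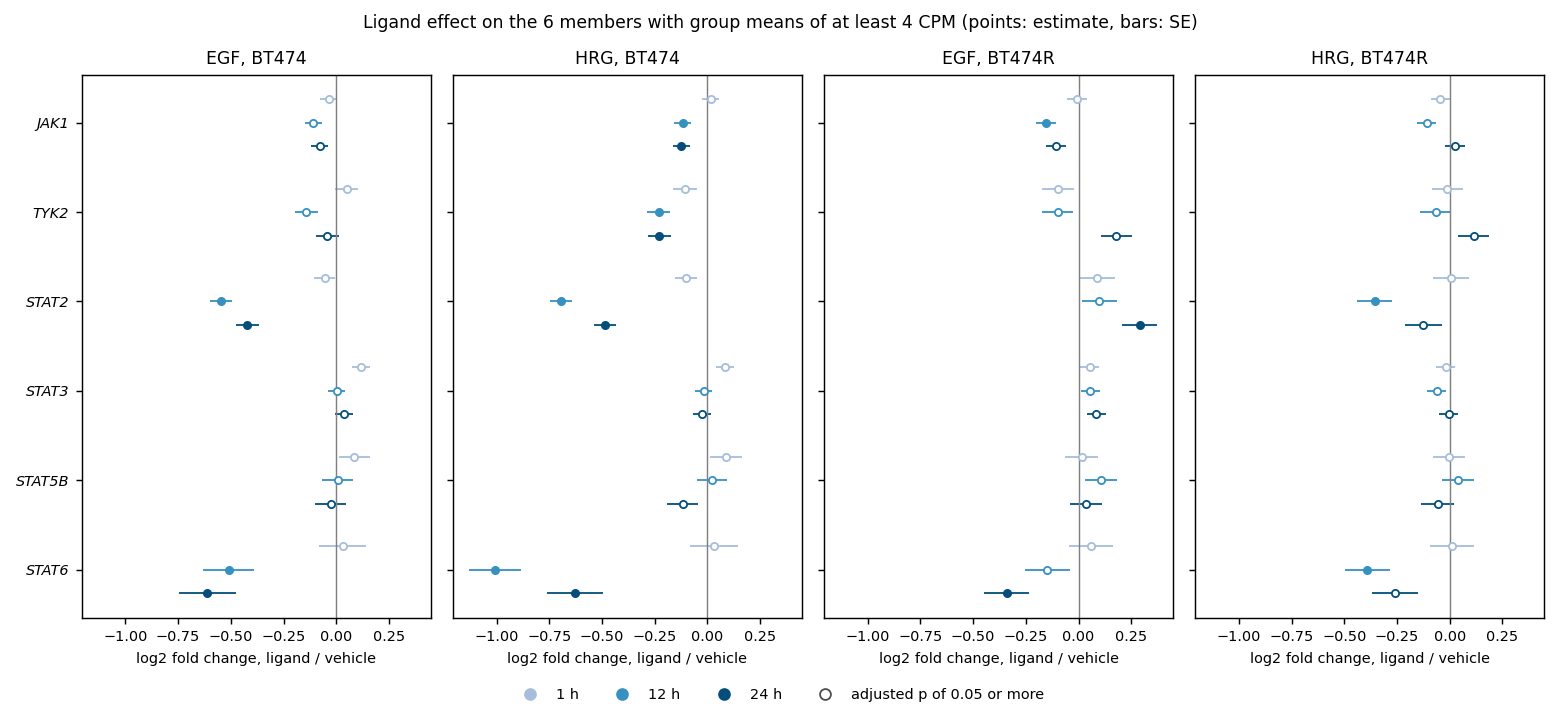
Log2 fold change of ligand against vehicle with its standard error for the 6 members with group means of at least 4 CPM, at each of the 3 times, with EGF and HRG in BT474 and BT474R. STAT2 and STAT6 lie left of 0 in BT474 at 12 h and 24 h, down to -1.01 for STAT6 with HRG, while STAT3 and STAT5B stay between -0.12 and 0.12 in all 12 comparisons.

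In BT474R STAT2 rose and STAT6 fell with EGF at 24 h, and JAK1 fell at 12 h. With EGF at 24 h STAT2 was at 55.0 and 58.9 CPM against 56.8 and 42.0 CPM with vehicle, a log2 fold change of 0.29 ± 0.08 (adjusted p = 0.020). The CPM overlapped, as 1 vehicle library lay between the EGF libraries. After scaling between libraries both EGF libraries were higher (58.6 and 63.0 against 56.0 and 43.2). The call was lost without replicate 2 of vehicle (0.13) or replicate 2 of EGF (0.25) and with only the libraries compared (adjusted p = 0.10). At 12 h STAT2 was at 59.2 and 55.3 CPM with EGF and 56.3 and 55.0 CPM with vehicle (0.10 ± 0.08). STAT6 fell with EGF at 24 h, from 13.8 and 11.4 CPM to 9.75 and 9.06 CPM (-0.34 ± 0.11, adjusted p = 0.033), and JAK1 fell with EGF at 12 h, from 150 and 155 CPM to 132 and 131 CPM (-0.15 ± 0.05, adjusted p = 0.033). STAT6 lost its call without replicate 1 of vehicle (-0.23) or either EGF library (-0.40 and -0.28), in DESeq2 (adjusted p = 0.074) and with only the libraries compared (0.096). JAK1 lost its call without any 1 of 4 libraries, with no filter on low counts (adjusted p = 0.15) and with the replicate block within each line and time point (0.055). Of the 9 members, 1 fell at 12 h, beside 5.13% of all genes, and 1 rose and 1 fell at 24 h, beside 9.95% and 7.37%.

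HRG lowered STAT2 and STAT6 in BT474R at 12 h. STAT2 went from 56.3 and 55.0 CPM to 44.3 and 40.9 CPM (-0.36 ± 0.08, adjusted p = 0.016), and STAT6 from 12.1 and 12.5 CPM to 9.82 and 8.59 CPM (-0.39 ± 0.11, adjusted p = 0.039). The groups did not overlap, yet both calls were lost without any 1 of their 4 libraries (-0.41 to -0.28 and -0.48 to -0.28), and that of STAT6 also in DESeq2 (adjusted p = 0.080), with no filter (0.063) and with only the libraries compared (0.11). These were 2 of 9 members, where 1.73% of all genes fell. At 24 h 0 of 9 passed edgeR's test (2.78% of all genes did). At an unadjusted p under 0.05 there was 1, STAT6 (-0.26 ± 0.11), and DESeq2 called 0. STAT2 at 24 h was at 45.4 and 41.9 CPM with HRG and at 56.8 and 42.0 CPM with vehicle. Its log2 fold change of -0.13 depended on the vehicle library, as it was -0.29 without replicate 2 of vehicle. STAT4 at 12 h had 1 and 1 counts with HRG against 7 and 8 with vehicle, 2 against 15 in all, and did not pass (adjusted p = 0.076).

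The effect of EGF on STAT2 differed between the lines. In 1 fit of all 40 libraries, the effect in BT474R minus that in BT474 was 0.63 ± 0.10 at 12 h (adjusted p = 9.6e-05) and 0.70 ± 0.10 at 24 h (adjusted p = 8.9e-06), and both calls held in every alternative and without any 1 library (0.58 to 0.69 and 0.53 to 0.91). STAT2 was 1 of 9 members to pass at either time, where 1.96% and 4.01% of all genes did. With HRG the difference in STAT2 was 0.32 ± 0.10 at 12 h and 0.32 ± 0.10 at 24 h and did not pass (adjusted p = 0.061 and 0.080), but this depended on the setting. At 12 h it passed in 6 alternatives (0.0028 to 0.046), including both replicate blocks (0.036 within each line, 0.039 within each line and time point). At 24 h it passed in 4 (0.026 to 0.0496), including the block within each line (0.047), and without replicate 2 of HRG or replicate 1 of vehicle in BT474R (0.033 and 0.00042). At 24 h with HRG 0 of 9 members passed edgeR's test between the lines (3.33% of all genes did), 2 were at an unadjusted p under 0.05 (STAT2 and TYK2) and DESeq2 called 2. At 1 h 0 of 9 differed between the lines with either ligand by edgeR or DESeq2, with 0 at an unadjusted p under 0.05 (0.138% of all genes passed with EGF and 0.544% with HRG). The fall of STAT6 with HRG at 12 h was weaker in BT474R, by 0.60 ± 0.16 (adjusted p = 0.026), 1 of 9 members where 4.07% of all genes passed. That call was lost without 1 of 6 of its 8 libraries (0.51 to 0.69 over all 8). The STAT2 level with ligand at 12 h in BT474 (53.7 CPM with EGF, 48.2 CPM with HRG) came near the BT474R vehicle level of 55.6 CPM.

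The ligands differed from each other in STAT2 in BT474R. With HRG it was lower than with EGF by -0.46 ± 0.08 at 12 h (adjusted p = 0.0044) and by -0.41 ± 0.09 at 24 h (adjusted p = 0.0040), with no overlap between the libraries. It was 1 of 9 members at each time, beside 1.42% and 5.18% of all genes. The 12 h call was lost without replicate 2 of HRG (-0.40) or replicate 1 of EGF (-0.40) and the 24 h call without replicate 2 of EGF (-0.37) or with only the libraries compared (adjusted p = 0.28). In BT474 STAT6 was lower with HRG than with EGF at 12 h, by -0.50 ± 0.14 (adjusted p = 0.045, 1 of 9 members beside 2.17% of all genes), a call that was lost without any 1 of 4 libraries (-0.56 to -0.42), in DESeq2 (adjusted p = 0.10) and in 1 fit of both lines (0.070).

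The fall of STAT2 and STAT6 in BT474 came between 1 h and 12 h. The EGF effect at 12 h minus that at 1 h was -0.49 ± 0.07 for STAT2 (adjusted p = 5.9e-06) and -0.54 ± 0.16 for STAT6 (adjusted p = 0.033), and the HRG effect changed by -0.59 ± 0.07 (adjusted p = 9.3e-08) and -1.04 ± 0.17 (adjusted p = 1.8e-05). These were 2 of 9 members with each ligand, beside 7.72% and 14.2% of all genes. The STAT6 call with EGF was lost in DESeq2 (adjusted p = 0.12) and without 1 of 7 of its 8 libraries (-0.62 to -0.46 over all 8), and the other 3 held without any 1 library. From 12 h to 24 h, 0 of 9 members passed edgeR's test with either ligand in BT474 (0.517% of all genes did with EGF and 2.50% with HRG), with 0 (EGF) and 2 (HRG, STAT2 and STAT6) at an unadjusted p under 0.05 and 0 called by DESeq2. In BT474R 0 of 9 members passed edgeR's test in any of the 4 comparisons of an effect over time, where 4.43% and 0.185% of all genes did with EGF and 0.992% and 0.0288% with HRG, with 1 to 3 members at an unadjusted p under 0.05 in each and 0 called by DESeq2.

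Levels also moved with time under vehicle alone. In BT474 STAT6 went from 9.55 and 10.9 CPM at T0 to 7.62 and 7.24 CPM at 24 h (-0.48 ± 0.12, adjusted p = 0.0047) and STAT2 from 84.1 and 86.4 CPM to 72.8 and 78.2 CPM (-0.20 ± 0.05, adjusted p = 0.0055). TYK2 was lower than at T0 by -0.17 ± 0.05 at 12 h and by -0.17 ± 0.05 at 24 h, and JAK1 was higher at 12 h by 0.14 ± 0.04, from 125 and 123 CPM to 135 and 138 CPM. These were 2 of 9 members at 12 h and 3 at 24 h, where 6.41% and 11.4% of all genes passed. Every one of these 5 calls was lost without at least 1 of its libraries: STAT6 without replicate 2 of T0 (-0.40) or of vehicle (-0.43), STAT2 without replicate 1 or 2 of T0 (-0.20 and -0.19) or replicate 1 of vehicle (-0.15), TYK2 without replicate 2 of T0 or either vehicle library (-0.18 to -0.11), and JAK1 without any 1 (0.12 to 0.16). In 1 fit of both lines STAT2 (adjusted p = 0.061) and TYK2 (0.21 at 12 h and 0.13 at 24 h) did not pass, nor did TYK2 in DESeq2 (0.071 and 0.065) or JAK1 with no filter (0.068). In BT474R JAK1 fell from 148 and 151 CPM at T0 to 127 and 121 CPM under vehicle at 24 h (-0.26 ± 0.05, adjusted p = 0.00071). It was 1 of 9 members, beside 13.7% of all genes, and held without any 1 library.

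STAT3, STAT5B, STAT5A and STAT4 passed the test in none of the 12 comparisons of a ligand with its vehicle. STAT3 was between 143 and 169 CPM in all 40 libraries and STAT5B between 22.1 and 28.7 CPM. Their estimates were between -0.06 and 0.12 for STAT3 and between -0.12 and 0.11 for STAT5B, and the 95% intervals of STAT3 stayed within -0.16 and 0.20. STAT5A had 12 to 43 counts in a library, and its 95% intervals were wider, reaching from -0.88 to 1.34 over the 12 comparisons.

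The other genes of the pathway were counted by lists drawn up from general knowledge, but with earlier results of these data known. Their counts are thus descriptions and not independent support. Of the 30 receptor genes whose products use JAKs, 25 were tested in BT474, and EGF at 12 h raised 1 and lowered 6, HRG at 12 h raised 1 and lowered 7, and HRG at 24 h raised 1 and lowered 8, beside the shares of all genes given above. LIFR, the receptor of leukemia inhibitory factor, fell with EGF at 12 h from 23.7 to 17.0 CPM (-0.43 ± 0.09), IL11RA, the receptor of interleukin-11, fell with HRG at 12 h from 8.24 to 4.34 CPM (-0.87 ± 0.14), and GHR, the growth hormone receptor, fell with HRG at 24 h from 68.7 to 40.8 CPM (-0.71 ± 0.06). Of 26 tested in BT474R, 5 rose and 5 fell with EGF at 24 h, beside 9.95% and 7.37% of all genes. OSMR, the receptor of oncostatin M, rose from 7.36 to 15.4 CPM (1.15 ± 0.11) and PRLR, the prolactin receptor, which signals through JAK2, fell from 740 to 413 CPM (-0.76 ± 0.07). At T0, 7 of 26 were higher in BT474R and 8 lower, near the 25.1% and 21.7% of all genes. Among them GHR was lower by -1.77 ± 0.08, OSMR was lower by -1.06 ± 0.12 and IL4R, the interleukin-4 receptor that acts through STAT6, was higher by 1.34 ± 0.08. Of the cytokines themselves, 4 of 9 tested were lower in BT474R at T0 and 0 higher (21.7% and 25.1% of all genes), CLCF1, a cytokine of the interleukin-6 family, by -0.97 ± 0.19.

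Among 19 inhibitors of JAKs and STATs, SOCS2, a feedback inhibitor that STAT5 induces, fell with both ligands in both lines at 12 h and 24 h. The largest fall was with HRG-BT474 at 24 h, from 19.2 to 3.05 CPM (-2.63 ± 0.12), and the smallest of these was with HRG-BT474R at 24 h, from 6.34 to 2.98 CPM (-1.03 ± 0.16). SOCS3, a feedback inhibitor that STAT3 induces, fell in BT474 at 12 h with EGF (4.01 to 1.84 CPM, -1.06 ± 0.22) and with HRG (4.01 to 1.47 CPM, -1.40 ± 0.22). PTPN6, a phosphatase that acts on JAKs, fell with HRG-BT474 at 12 h by -0.45 ± 0.06. Of the 19, 5 rose and 3 fell with HRG-BT474 at 12 h, where 13.3% and 12.5% of all genes did, and 2 rose and 3 fell with EGF-BT474 at 12 h, where 9.04% and 6.99% did.

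IRF9, the partner of STAT2, rose with EGF-BT474R from 4.08 to 12.8 CPM at 12 h (1.70 ± 0.12) and from 4.63 to 12.6 CPM at 24 h (1.52 ± 0.12). Of 21 tested interferon genes that STAT2 with IRF9 is known to bind, 13 rose and 0 fell with EGF-BT474R at 12 h (6.85% of all genes rose) and 14 rose and 2 fell at 24 h (9.95% and 7.37%), with a list median of 1.95 against -0.01 for all genes. In BT474 at 24 h 1 of 22 rose and 1 fell with EGF (9.71% and 6.65% of all genes). In the test between the lines 11 of 22 responded to EGF more positively in BT474R at 12 h (0.929% of all genes). At 24 h 12 of 22 responded more positively (1.92% of all genes) and 1 more negatively (2.09%). IFIT2, an antiviral gene, rose from 0.378 to 9.99 CPM at 24 h (4.79 ± 0.28). Of 14 tested genes known as targets of STAT3, 5 rose and 0 fell with EGF-BT474 at 1 h (1.65% of all genes rose), among them FOS (5.77 to 98.3 CPM), JUNB (92.8 to 307 CPM) and MYC (55.7 to 106 CPM), which growth factor receptors also induce by other routes. With EGF-BT474R at 24 h, 8 of 14 rose and 0 fell (9.95% and 7.37% of all genes). Of 10 tested targets of STAT5, 3 rose and 2 fell with HRG-BT474 at 24 h, and of 7 tested targets of STAT6, 1 rose and 0 fell, where 12.5% of all genes rose and 11.6% fell.

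For each member the genes with the most similar pattern were sought by the correlation of log2 CPM over the 20 group means, among 15074 genes with a mean of at least 1 CPM. JAK1 was most like GTF3C1 (r = 0.98), BCAS1 and BLMH, JAK2 most like ACSS3 (r = 0.99), SYT9 and GLI3, STAT2 most like TRIM21 (r = 0.88), STAT3 most like FEZ2 (r = 0.93), STAT6 most like UFL1 (r = 0.95), STAT5B most like CLK3 (r = 0.89) and TYK2 most like ANO9 (r = 0.83). For STAT4 and STAT5A no gene passed r = 0.74. The group means share lines, libraries and times, and for JAK1 and JAK2 the difference between the lines takes up most of the pattern. Among the members, the 10 group means of BT474 gave r = 0.92 for STAT2 with STAT6 and r = 0.88 for STAT2 with TYK2, and those of BT474R gave 0.21 and 0.10, as descriptions with no test.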

How the data were processed

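RNAseq libraries were made from mRNA of BT474 and BT474R, 2 per group, and groups were taken from the labels. The authors trimmed the reads (Trim Galore 0.6.6), aligned them to GRCh38.p13 and deposited raw counts per gene from featureCounts. Which annotation was used, whether strand was counted and what became of reads that match several genes are not given in the sources used here. From these counts CPM were computed, and differences were tested in R 4.3.3 with edgeR 4.0.16 (quasi-likelihood F test, TMM scaling, Benjamini-Hochberg adjustment over all genes, threshold 0.05). A gene was kept if 50% of the libraries or more had 1 count or more. Each line was fitted alone (20 libraries), and differences between lines in 1 fit of 40 libraries, over 42 comparisons. DESeq2 1.42.0, other filters and scalings, a replicate block and the removal of each library served as alternatives. The test was tried on simulated counts. All 9 members are named, and from each other list up to 3 genes with a mean of at least 1 CPM that passed the test, by size of change. Members and lists were chosen with earlier results of these data known. Exact intervals and detection limits cover counting error only.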

Additional observations from a re-analysis of the deposited data

Results flagged for a closer look

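The EGF effect on STAT2 differed between the lines, by 0.63 ± 0.10 on the log2 scale at 12 h (adjusted p = 9.6e-05) and by 0.70 ± 0.10 at 24 h (adjusted p = 8.9e-06), BT474R minus BT474. The HRG effect on STAT6 at 12 h differed by 0.60 ± 0.16 (adjusted p = 0.026), and this was lost without 1 of 6 of its 8 libraries (0.51 to 0.69). In BT474 the effects at 12 h and 1 h differed with EGF for STAT2 (-0.49 ± 0.07) and STAT6 (-0.54 ± 0.16, a call lost in DESeq2, with an adjusted p of 0.12, and without 1 of 7 of its 8 libraries), and with HRG for STAT2 (-0.59 ± 0.07) and STAT6 (-1.04 ± 0.17). All of these came from a test of the difference itself in edgeR, and both effects of such a difference use vehicle libraries of their own line and time.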

How the results depend on the processing

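Of 54 calls of members, all 54 kept their direction under every alternative and every left-out library, 35 stayed past the threshold in every alternative, 28 without any 1 library and 27 in both. Of 324 estimates that did not pass, 14 passed in at least 1 alternative and 10 with a library left out. Counts of calls that moved by over 1.5 times follow, with the cause not tested. With DESeq2, HRG against EGF in BT474 gave 0 calls (1 in the fit reported), vehicle against T0 in BT474 gave 3 (5), HRG-BT474R gave 1 (2) and the HRG effect between the lines gave 4 (1). With filterByExpr, vehicle against T0 in BT474R gave 2 (1) and the HRG effect between the lines 3. With no filter, HRG against EGF in BT474 gave 2, HRG-BT474R 1 and the HRG effect between the lines 4. In 1 fit of both lines, HRG against EGF in BT474 gave 0, vehicle against T0 gave 2 in BT474 and 2 in BT474R. With only the libraries of the groups compared, EGF-BT474 gave 7 (4), EGF-BT474R 1 (3), HRG-BT474R 1, HRG against EGF in BT474R 1 (2), vehicle against T0 in BT474R 2, the effects over time in BT474R 1 (0) and the HRG effect between the lines 2.

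Nothing in the labels says what a replicate number marks, and the numbers were not taken as pairs. Deviations of same-numbered libraries correlated at -0.12 to 0.43 over 28 comparisons and over 0.1 in 6, at 24 h in BT474 (0.154, 0.312 and 0.217) and BT474R (0.430 and 0.277) and for HRG-BT474R at 12 h (0.106). Whether libraries of 1 number share a factor at 24 h was not tested. With the replicate block within each line the HRG effect between the lines gave 3 calls, and with the block within each line and time point it gave 2 and HRG against EGF in BT474 gave 2, while no other count moved by over 1.5 times.

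Without any 1 library the counts ran from 3 to 4 for the lines at T0, 13 to 15 for the lines under vehicle (16 in the fit reported), 4 to 5 for EGF-BT474, 6 to 9 for HRG-BT474, 1 to 2 for EGF-BT474R, 0 to 3 for HRG-BT474R, 2 to 2 for the EGF effect and 0 to 3 for the HRG effect between the lines, 0 to 2 and 1 to 2 for HRG against EGF in BT474 and BT474R, 0 to 5 and 1 to 2 for vehicle against T0, and 3 to 4 and 0 to 0 for the effects over time.

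With 2 libraries a group, JAK2 in BT474R (0 to 9 counts), STAT4 (0 to 11) and STAT5A (12 to 43) were limited by depth.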
